A study of Homo sapiens with 36 samples.

Results

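The HOX genes of the 4 human HOX clusters were followed through 9 lists of RNA windows bound by different proteins in HEK293T cells. A window was counted as HOX when the authors' annotation named it for a single gene of the HOXA, HOXB, HOXC or HOXD series. This gave 24 HOX genes, of 39 in RefSeq and of 10774 singly named genes in the lists. They held 1640 of 788098 list entries. Since a window can stand in several lists, these were 842 distinct windows of 601384. A further 300 entries carried a HOX gene together with another gene, often a second HOX gene, and were kept apart.

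The lists come from enhanced crosslinking and immunoprecipitation (eCLIP), in which proteins are crosslinked to RNA in cells, pulled down, and the attached RNA fragments sequenced beside a size-matched input. HEK293T is a human embryonic kidney line, and all 36 libraries came from it with no further treatment. The 9 proteins (CPSF5, CPSF6, EIF4B, GRB2, LGALS3, MBNL2, RBM10, RBM22 and RNPS1) had 2 IP libraries each, set against 2 input libraries each. The antibody was raised against the protein or against a V5 tag, and the labels do not say which served which protein. They also leave out whether replicate libraries came from separate cultures. The epithelial and mesenchymal markers VIM, KRT8 and KRT18 had windows in 8, 5 and 4 lists, and the neurofilament gene NEFL in 5. NEFM, the kidney lineage gene PAX2, and HBB, PTPRC, ALB and MYH7, markers of blood, liver and muscle, had none.

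HOX genes encode homeodomain transcription factors that give cells their position along the body axis. In each cluster the genes stand in a row on the same strand, numbered by paralog group, and anterior groups act nearer the head than posterior groups. Most are short, with a single intron in the coding unit, but neighbouring genes overlap, share upstream promoters and are joined by long transcripts that span several genes. CPSF5 (gene NUDT21) and CPSF6 form cleavage factor Im, which binds UGUA ahead of poly(A) sites. EIF4B assists the helicase that opens mRNA 5′ ends for translation. RBM10 and RBM22 act in splicing, RNPS1 belongs to the exon junction machinery, and MBNL2 is a muscleblind splicing regulator. GRB2 is a signalling adaptor and LGALS3 a lectin, and neither is a classical RNA-binding protein.

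Some windows named for HOX genes lay just ahead of the RefSeq start of the gene. The authors' annotation places them in introns of transcripts that begin farther upstream. The 5 windows below are some of those that lie in such introns and whose bases could be read from RefSeq promoter entries (GRCh38.p14). Capitals mark TGTA or AATAAA, the DNA letters of the cleavage factor Im motif UGUA and of the poly(A) signal. Both motifs were searched on the transcript's strand only. Further such windows hold neither motif and are not shown. They lie at chr2:176107084-176107181 (HOXD11), chr2:176116579-176116677 (HOXD10) and chr7:27165636-27165734 (HOXA9).
HOXD10 chr2:176116678-176116777 (plus strand): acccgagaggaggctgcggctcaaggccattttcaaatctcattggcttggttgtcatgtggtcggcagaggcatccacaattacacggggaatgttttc
HOXD11 chr2:176107182-176107279 (plus strand): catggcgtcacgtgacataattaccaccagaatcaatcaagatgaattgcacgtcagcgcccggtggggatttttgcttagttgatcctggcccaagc
HOXA9 chr7:27165538-27165635 (minus strand): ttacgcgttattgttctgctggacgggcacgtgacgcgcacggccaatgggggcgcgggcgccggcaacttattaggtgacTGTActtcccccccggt
HOXC6 chr12:54016646-54016744 (plus strand): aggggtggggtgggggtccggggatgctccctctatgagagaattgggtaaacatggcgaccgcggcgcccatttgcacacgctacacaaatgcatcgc
HOXC6 chr12:54016745-54016843 (plus strand): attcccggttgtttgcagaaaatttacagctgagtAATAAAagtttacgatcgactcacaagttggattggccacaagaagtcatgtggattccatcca
The HOXD10 and HOXD11 windows end on the base before the RefSeq start of their gene, and each stood in 5 lists. The HOXA9 window holds TGTA and stood in the CPSF5 and RBM10 lists. Of all 35116 RefSeq promoter stretches of its length (98 nt), 15.6% hold that motif. The first HOXC6 window, listed for CPSF5, holds neither motif. The second, listed for RBM10, holds AATAAA, which 3.08% of stretches of 99 nt hold.

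The mature microRNAs miR-196a and miR-10a are shown because a hairpin of each lies under CPSF5 windows, and miR-196b for comparison of its seed. Capitals mark the seed, bases 2 to 8.
hsa-miR-196a-5p: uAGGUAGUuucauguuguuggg
hsa-miR-196b-5p: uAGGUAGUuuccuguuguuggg
hsa-miR-10a-5p: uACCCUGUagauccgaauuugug
The miR-196 members share their seed and are known repressors of HOX mRNAs, while miR-10a has another seed. The MIR196A2 hairpin (chr12:53991738-53991847) overlapped 2 CPSF5 windows that the authors assign to HOXC6. Those windows had 37 and 40 IP reads against 2 and 4 input reads. The MIR10A hairpin (chr17:48579838-48579947) overlapped a window named for HOXB3 and a second gene, with 62 IP reads against 6 input reads for CPSF5. That window was also listed for CPSF6 and RNPS1. Read counts here and below are the authors' sums over replicates, so no spread can be given.

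Singly named HOX genes had windows in the lists of 8 of the 9 proteins. EIF4B had a window in all 24 HOX genes, while 91% of the 10774 genes had one. CPSF6 had windows in 23 HOX genes (85% of all genes), RNPS1 in 22 (87.9%) and CPSF5 in 20 (62.3%). MBNL2 had windows in 18 (63.4%), RBM10 in 13 (45.6%) and GRB2 in 9 (47.7%). RBM22 had windows in 15 of 24 HOX genes, or 62.5%, while 23.3% of all genes had one. LGALS3 had none in a singly named HOX gene (3.26% of all genes). Its list of 1002 windows held 1 that was named for both HOXD11 and HOXD10. The HOX share lay farthest from the share of all genes for RBM22 and then for CPSF5, whose 20 genes are 83.3% of the HOX genes. A window missing from a list may be unbound or too thinly covered, and the tables do not separate these.

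Counted in windows, CPSF6 had 427 HOX windows and EIF4B 407. CPSF5 had 196, RNPS1 182, RBM10 177, RBM22 100, MBNL2 86 and GRB2 65. HOX windows made up 1.15% of the RBM22 list, 0.620% of the RBM10 list and 0.592% of the EIF4B list. They were 0.505% of the CPSF5 list and 0.275% of the CPSF6 list. The lowest shares above 0 were 0.200% for MBNL2, 0.119% for RNPS1 and 0.0223% for GRB2, whose list was the longest.

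HOXC6 led the HOX genes with 146 distinct windows. It had 70 windows for EIF4B, 62 for RBM10, 59 for CPSF6 and 50 for CPSF5, but 11 each for RBM22 and RNPS1, 2 for GRB2 and 1 for MBNL2. Ranked by windows among all genes of a list, it stood 4th for CPSF5, 11th for RBM10 and 12th for EIF4B, but 440th for CPSF6. HOXB3 followed with 113 distinct windows, and none of its entries came from MBNL2. HOXD10, a limb and spinal cord gene, had 70 distinct windows and the most HOX windows for GRB2, 25, and for RBM22, 27. None of those 25 GRB2 windows lay inside the RefSeq HOXD10 gene, as 17 lay in another HOX gene and 8 upstream, and 15 of the 27 RBM22 windows lay inside it. HOXB6 had 67, of which CPSF6 took 53 entries. HOXC4 had 66 and led the RNPS1 list's HOX genes with 23. HOXA9, a regulator of blood stem cells, had 62 and reached 43 for CPSF5. HOXA10, which in mice patterns the reproductive tract, had 39 and led for MBNL2 with 14. HOXB9 had 38, HOXD11 33 and HOXA5, needed in mice for lung development, 25. These 10 genes held 659 of the 842 distinct windows (78.3%). At the low end, HOXC13 and HOXB13 had 5 each and HOXD3 had 6.

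**Figure D1:**
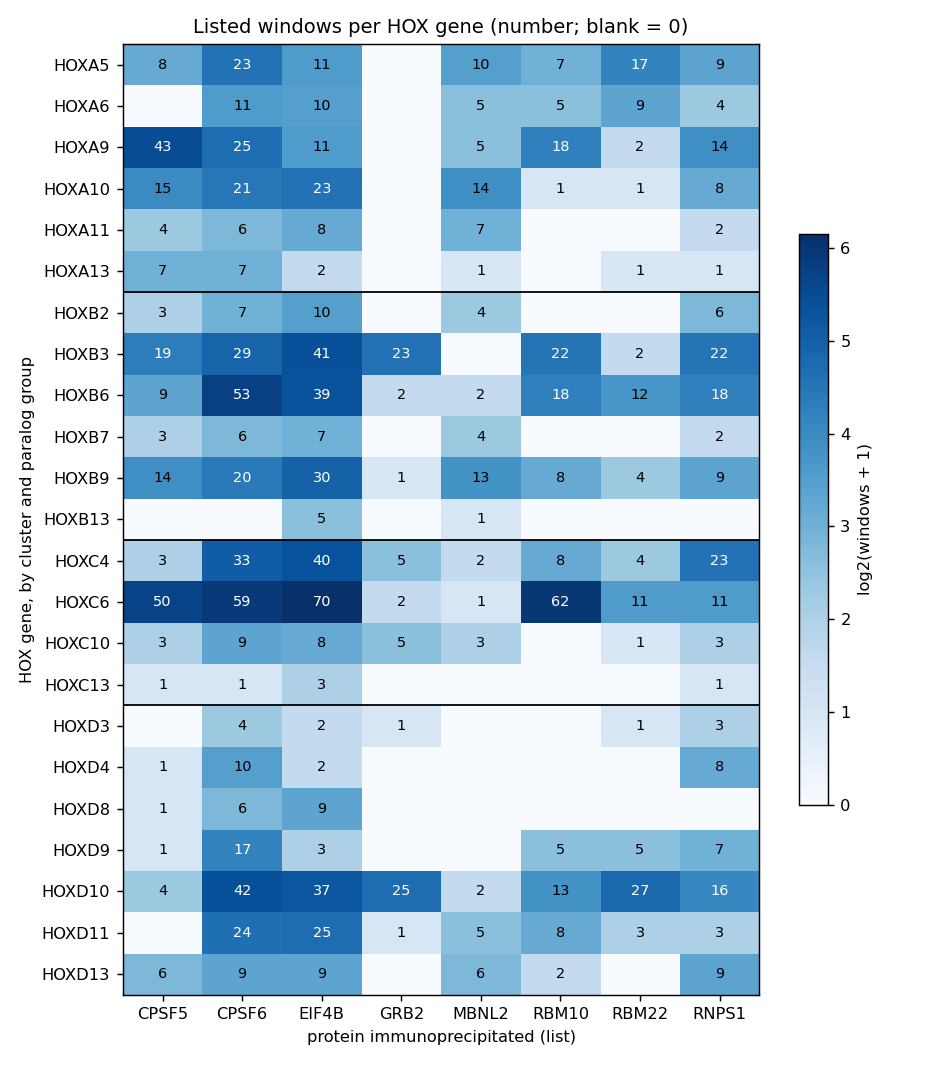
Number of listed windows for 23 of the 24 listed HOX genes (rows, by cluster and paralog group) in each of 8 lists (columns). Darker cells hold more windows on a log2 scale, blank cells hold 0, and HOXC6 holds the highest count of the CPSF5, CPSF6, EIF4B and RBM10 columns.

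The 4 clusters were all represented. HOXB on chromosome 17 held 248 distinct windows (29.5%) in 6 of its 10 RefSeq genes, and HOXC on chromosome 12 held 241 (28.6%) in 4 of 9. HOXA on chromosome 7 held 178 (21.1%) in 7 of 11, and HOXD on chromosome 2 held 175 (20.8%) in 7 of 9. The balance between clusters differed by protein. HOXA took 50% of the HOX windows of MBNL2 and 39.8% of those of CPSF5, but 0 of the 65 of GRB2. HOXD took 41.5% for GRB2 and 36% for RBM22, but 6.63% for CPSF5. HOXC took 39.5% for RBM10 and 6.98% for MBNL2.

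Of the 15 HOX genes without a window of their own, HOXB4, HOXC8 and HOXC9 were named only beside another gene. The 126 entries named HOXC6 and HOXC9, the 57 named HOXC6 and HOXC8 and the 43 named HOXB3 and HOXB4 could not be given to either gene. HOXA2, HOXA3, HOXA4, HOXA7, HOXB1, HOXB5, HOXB8, HOXC5, HOXC11, HOXC12, HOXD1 and HOXD12 had no entry. By paralog group, the anterior groups 1 to 3 had windows in 4 of 8 genes, 139 in all (16.5%). Groups 4 to 8 had 354 (42.0%) in 8 of 15 genes, and the posterior groups 9 to 13 had 349 (41.4%) in 12 of 16. All members of groups 6, 10 and 13 were listed, and neither member of group 12. The tables give no RNA level, so an unlisted gene may be silent in these cells or unbound. Windows can also carry the name of an overlapping gene, as RefSeq HOXC5 shares its start with HOXC4 and HOXC6.

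The place of HOX windows along the transcript differed from that of the whole lists for several proteins. CPSF5 windows lay in the 3′ UTR in 44.9% of HOX cases, against 78.8% of the list, and 84 (42.9%) lay deep in introns, against 5.38%. Inside RefSeq genes alone, the deep intron share of CPSF5 HOX windows was 21.8% and the 3′ UTR share 66.2%. Deep intron here means beyond the splice site flanks of the authors' annotation. EIF4B HOX windows were 43.2% deep intron, against 9.67%, and 6.63% 5′ UTR, against 30.6%. RBM10 HOX windows were 54.8% deep intron, against 14.4%, and 6.21% next to a 3′ splice site, against 32.0%. GRB2 windows were mostly deep intron in HOX genes too (81.5%, against 93.1%).

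The other lists were less shifted to introns. CPSF6 HOX windows were 19.4% deep intron (7.71% inside RefSeq genes), against 23.4%, 27.2% coding, against 46.3%, and 17.6% 3′ UTR, against 7.26%. RBM22 HOX windows were 26% deep intron, against 19.4%, and 15% 3′ UTR, against 5.59%. The RBM22 deep intron share turned to 12.3% when only HOX windows inside the RefSeq gene were kept, and was 12.1% of HOX windows with a largest q-value of 0.05. The list's shares were not limited in these ways. RNPS1 HOX windows were 46.2% coding, against 63.2%, and 13.7% 3′ UTR, against 4.26%. MBNL2 HOX windows were 48.8% coding and 23.3% 3′ UTR, against 50.1% and 19.7%. Neighbouring windows and windows of 1 gene share their source, so these shares are descriptions of the lists and were not tested.

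**Figure D2:**
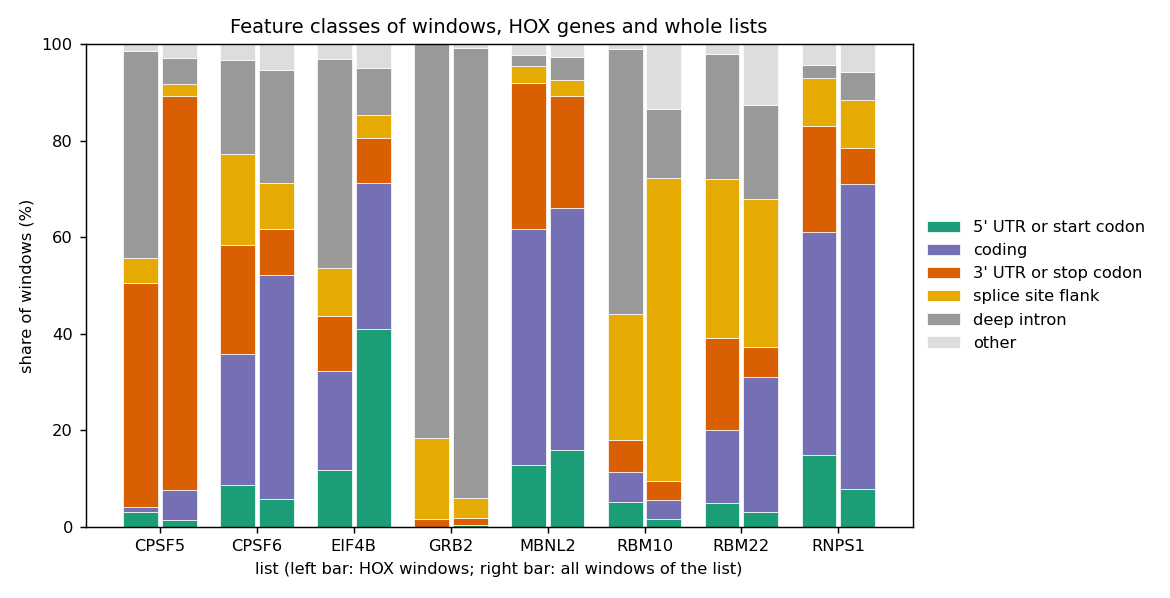
Share of windows (%) in 6 feature classes for each list, with HOX windows on the left and all windows of the list on the right of each pair. The grey deep intron part is larger in the HOX bar for CPSF5, EIF4B, RBM10 and RBM22, and smaller for CPSF6, GRB2, MBNL2 and RNPS1. For RBM22 it is smaller (12.3%, against 19.4%) when only HOX windows inside the RefSeq gene are kept, while the list's share is of all its windows.

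The intron windows came from few genes. HOXC6 gave 43 of the 84 deep intron HOX windows of CPSF5 and HOXA9 gave 23, with HOXB3, HOXB6, HOXD10 and HOXB9 giving the rest. HOXC6 likewise gave 57 of 97 for RBM10 and 60 of 176 for EIF4B. For EIF4B, HOXB3 added 35, HOXC4 22 and HOXD10 19. For GRB2, HOXD10 gave 24 of 53 and HOXB3 18. RBM22 had 11 in HOXD10 and 9 in HOXC6.

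Many of these introns lie outside the RefSeq gene whose name they carry. Of the 842 distinct windows, 665 (79.0%) lay inside their own RefSeq gene, 28 inside another HOX gene, 149 upstream between HOX genes and none downstream. HOXC6 had 78 of its 146 windows upstream, HOXA9 31 of 62, HOXD11 20 of 33 and HOXD3 all 6. HOXD10 had 11 upstream and 28 inside another HOX gene, of 70. In HOXC6, all 120 deep intron windows were annotated to a single transcript, and they run past HOXC9 and HOXC8 into HOXC6. In HOXA9, 25 of 26 were annotated to a single transcript. The upstream share was 31.6% of HOX windows for CPSF5, 27.7% for RBM10, 18.5% for GRB2, 14.5% for EIF4B and 12.9% for CPSF6. It was 12% for RBM22, 4.65% for MBNL2 and 3.30% for RNPS1. A further 26.2% of the GRB2 HOX windows lay inside another HOX gene. Which transcript the reads came from cannot be told from the windows, and RefSeq HOXC4, HOXC5 and HOXC6 share their start, so windows in that first stretch fit each of them.

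Counted in windows named for HOXC6 alone, the lists divided its upstream region differently. The 126 entries named for HOXC6 and HOXC9 are left out here, as are the 57 named for HOXC6 and HOXC8. The former numbered 34 each for EIF4B and RBM10, 24 for CPSF6 and 14 for CPSF5. The counts below are therefore incomplete for this region. Between the end of HOXC10 and the start of HOXC9, CPSF5 had 21 windows, against 7 for CPSF6, 4 for RBM10 and 2 each for EIF4B and GRB2. Between HOXC9 and HOXC8, RBM10 had 27, EIF4B 25, CPSF6 20, CPSF5 9 and RBM22 4. Inside the RefSeq HOXC6 gene, EIF4B had 41, RBM10 28, CPSF6 26, CPSF5 18, RNPS1 11 and RBM22 7. Only 5 of the 50 CPSF5 windows of HOXC6 lay in its 3′ UTR. HOXA9 was divided in another way. Of its 43 CPSF5 windows, 29 lay upstream of the RefSeq start and 10 in the 3′ UTR, while all 25 of its CPSF6 windows lay inside the gene.

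**Figure D3:**
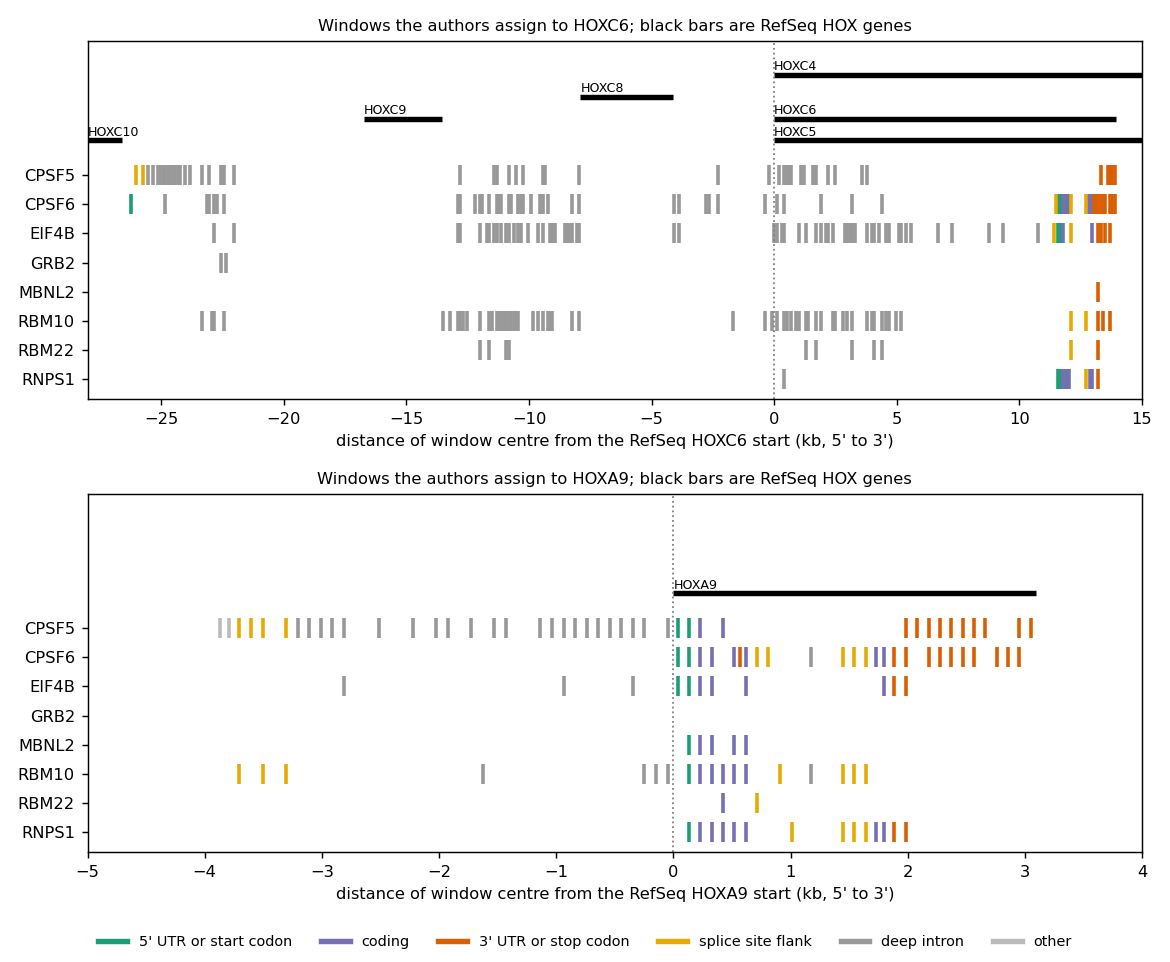
Windows assigned to HOXC6 (top) and HOXA9 (bottom) by list, placed by distance of the window centre from the RefSeq start in kb and coloured by feature class. Windows named for HOXC6 and a second gene are not drawn. Black bars are RefSeq HOX genes. CPSF5 has 29 HOXA9 windows left of the start and CPSF6 has none there.

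The windows whose sequence is printed above show this upstream binding close to gene starts. The HOXD10 window at chr2:176116678-176116777 had 28 IP reads against 12 input reads for CPSF5, 82 against 18 for CPSF6 and 46 against 14 for EIF4B. It had 65 against 9 for RBM10 and 57 against 24 for RBM22. Its lower-replicate log2 enrichment, the authors' log2 odds ratio of IP over input in the weaker replicate, lay between 1.27 (RBM22) and 2.43 (EIF4B). The HOXD11 window had 72 IP reads against 11 input reads for CPSF6, 56 against 11 for EIF4B and 16 against 3 for MBNL2. It had 77 against 12 for RBM10 and 42 against 13 for RBM22. HOXD11 acts with its paralogs in forearm and, in mice, kidney development. The HOXA9 window with TGTA had 54 IP reads against 11 input reads for CPSF5 and 89 against 2 for RBM10. The adjoining HOXC6 windows had 27 IP reads against 2 input reads for CPSF5 and 26 against 0 for RBM10.

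The strongest CPSF5 windows of HOX genes lay in 3′ UTRs, several of them near the gene end. In HOXA10 the last window of the 3′ UTR (chr7:27170592-27170684, minus strand) had 127 IP reads against 0 input reads. The authors' log2 enrichment was 6.79 in the weaker and 7.34 in the stronger replicate, rank 83 of 38826 in the list. The window before it had 615 IP reads against 5 input reads (6.65 and 7.12), and the next 45 against 0 (5.23 and 5.91). HOXA10 held 14 CPSF5 3′ UTR windows in all, but 3 for CPSF6, where the strongest reached 2.06 in the lower replicate. HOXB3 (77 IP reads against 1 input read, 5.58 and 6.59), HOXC13 (30 against 0, 5.36 and 5.58) and HOXD13 (90 against 4, 4.78 and 5.56) followed. The HOXD13 window lay 1074 nt from the gene end. HOXD13 patterns the digits.

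Across HOX genes, CPSF5 had 88 3′ UTR windows in 19 of 24 genes, while 55.3% of all genes had one. Of these, 22 (25.0%) were centred within 200 nt of the RefSeq gene end, against 15.4% of 29867 such windows in all genes. CPSF6 had 75 in 18 HOX genes (33.9% of all genes had one), with 15 (20%) within 200 nt, against 6.36% in all genes. The median distance from the end was 527 nt for CPSF5 and 519 nt for CPSF6 in HOX genes, against 1134 nt and 1876 nt in all genes. The length of the 3′ UTRs was not taken into account in these shares. RBM10 had 4 of 11 HOX 3′ UTR windows within that distance, against 4.24% in all genes, RNPS1 4 of 25, against 5.35%, and RBM22 3 of 15, against 4.19%. EIF4B, with 3 of 35 (8.57%), and MBNL2, with 1 of 20 (5%), lay near the 7.71% and 4.26% of all genes. HOXA6 had no CPSF5 window, but 3 CPSF6 windows in its 3′ UTR, 2 of them within 200 nt.

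HOXB6 is shown at the base level because its last windows could be read from RefSeq (GRCh38.p14, minus strand), with the motif in capitals.
HOXB6 UGUA site chr17:48595851-48595880: tatgtgttgtgttTGTAgtcttgtcttagc
HOXB6 AAUAAA site chr17:48595755-48595784: caacaacaacaatAATAAAgatgtgaaaac
The UGUA motif lies 113 bases before the RefSeq gene end and the AAUAAA motif 15 bases before it. The window with UGUA (chr17:48595845-48595939) stood in the lists of CPSF5, with 86 IP reads against 18 input reads, CPSF6, with 247 against 22, RBM10 and RNPS1. Its lower and higher log2 enrichments were 2.76 and 3.07 for CPSF5, and 4.38 and 4.45 for CPSF6. The window with AAUAAA (chr17:48595751-48595844) had 170 IP reads against 17 input reads for CPSF6 (4.26 and 4.82) and 32 against 3 for RNPS1 (4.03 and 5.96), was listed for RBM10, and was not in the CPSF5 list. Of RefSeq promoter stretches of the same lengths, 15.2% hold UGUA and 2.92% AAUAAA. Promoters are a different kind of region from these 3′ UTR windows, and base composition was not matched. The GC content was 33.7% in the window with UGUA and 26.6% in the window with AAUAAA. No background of 3′ UTR ends was counted, so these rates do not show how rare either motif is at gene ends.

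**Figure D4:**
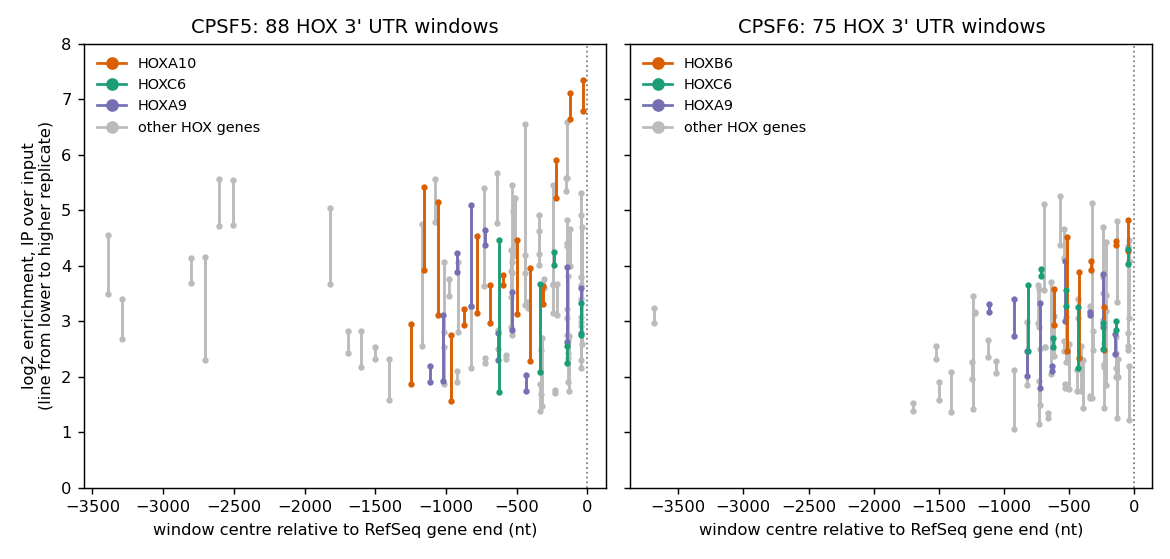
HOX 3′ UTR windows of CPSF5 (left, 88) and CPSF6 (right, 75) by distance of the window centre from the RefSeq gene end in nt, with the authors' log2 enrichment as a line from the lower to the higher replicate. The HOXA10 windows of CPSF5 nearest the end reach 6.79 in the lower replicate, and the highest CPSF6 lower value is 4.38.

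EIF4B had a start codon window in 20 of 24 HOX genes, while 60.7% of all genes had one. These 21 windows were 5.16% of its HOX windows, against 10.3% of its list, with a median lower log2 enrichment of 2.73, against 3.29 over 7092 start codon windows of the whole list. HOXB9 had 1020 IP reads against 31 input reads at its start codon (5.90 and 6.03). HOXD13 had 401 against 2 (5.86 and 6.83), HOXA11, a forearm gene, 49 against 1 (5.33 and 5.86), and HOXA9 295 against 15 (3.29 and 3.76). The highest EIF4B value of any HOX window was in coding sequence of HOXB2, a hindbrain gene, with 64 IP reads against 0 input reads (6.26 and 6.38). The EIF4B deep intron windows were weaker, with a median lower value of 1.82 in HOX genes, against 2.45 over the list's deep intron windows.

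RNPS1 HOX windows lay most often in coding sequence (84 of 182). The 15 RNPS1 stop codon windows lay in 15 of 24 HOX genes, while 36.5% of all genes had one. They made up 8.24% of its HOX windows, against 3.09% of its list. Its 11 start codon windows made up 6.04%, against 3.12%. CPSF6 had 21 HOX stop codon windows, 4.92% of its HOX windows, against 2.34% of its list. HOXA9 had 215 IP reads against 5 input reads at the stop codon (5.45 and 5.54), and its neighbouring coding window 220 against 2 (5.32 and 7.43). In HOXD10 a coding window had 273 IP reads against 4 input reads (4.77 and 6.48). HOXD4, a hindbrain gene, gave the strongest CPSF6 window, also in coding sequence, with 60 IP reads against 0 input reads (5.30 and 5.72).

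RBM10 and RBM22 bound HOX transcripts at splice sites as well as in deep introns. RBM10 had 11 windows next to 3′ splice sites, each in a different HOX gene, 11 of 24, while 34.9% of all genes had one. HOXA9 had 222 IP reads against 1 input read there (4.99 and 6.89), HOXA5 142 against 2 (4.26 and 6.61) and HOXB9 170 against 7 (3.15 and 3.80). The strongest RBM10 window of a HOX gene was a deep intron window upstream of HOXD11, with 58 IP reads against 0 input reads (5.42 and 5.57). RBM22 had 10% of its HOX windows next to a 5′ splice site, against 20.1% of its list. HOXA5 had 234 IP reads against 10 input reads at such a window (2.52 and 5.24), so its replicates lay far apart. The highest lower value of RBM22 was 2.97, in the 3′ UTR of HOXA13, with 22 IP reads against 2 input reads.

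MBNL2 and GRB2 windows were fewer. The strongest MBNL2 window lay at the start codon of HOXB7, with 16 IP reads against 0 input reads (5.99 and 6.45), rank 57 of 42960. EIF4B listed the same window with 26 against 2 (4.44 and 4.63). HOXA10 had an MBNL2 3′ UTR window with 23 IP reads against 5 input reads (4.74 and 4.91). The strongest GRB2 window lay next to a 5′ splice site of HOXC10, with 15 IP reads against 0 input reads (3.91 and 4.16), and ranked 88010 of 291116.

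Over all feature classes together, HOX windows had a lower median enrichment than their lists in the weaker replicate in all 8 cases. In the stronger replicate MBNL2 turned, with 3.38 for HOX windows, against 3.30 for the list. The median lower log2 value was 2.38 for CPSF5 HOX windows, against 2.81 for the list, 2.27 against 2.51 for CPSF6, and 2.10 against 2.81 for EIF4B. It was 1.68 against 3.38 for GRB2, 2.20 against 2.39 for MBNL2 and 2.21 against 2.77 for RBM10. It was 1.74 against 2.12 for RBM22 and 2.52 against 2.93 for RNPS1. Input reads moved the other way in 7 of these lists. The median HOX window had 7 input reads for CPSF5, against 4 in the list, 12 against 5 for CPSF6, 10 against 5 for EIF4B and 9 against 1 for GRB2. It had 6 against 2 for RBM10, 12.5 against 6 for RBM22, 3 against 2 for RNPS1 and 5 against 5 for MBNL2. The part of input coverage in the lower enrichment was not tested. Base composition differed too, with a median GC content of 49.2% for CPSF5 HOX windows, against 35.8% for the list, and 54.0% for EIF4B HOX windows, against 61.8%. Within single classes the median lower value went both ways. For CPSF6 it was higher in HOX windows in the 3′ UTR (2.46, against 2.29) and at stop codons (2.88, against 2.41). In CPSF6 deep introns it was lower (1.95, against 2.77). For CPSF5 3′ UTR windows it was 2.92, against 2.98.

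A larger share of HOX windows than of all windows stood in several lists, which is a description with no test. Of the 842 distinct HOX windows, 408 (48.5%) stood in 1 list, against 77.7% of all distinct windows. The GRB2 list weighs heavily on the second share, with 291116 windows, 98.1% of them in no other list, but 65 HOX windows. Shares without GRB2 were not counted. Another 210 (24.9%) stood in 2 lists, against 15.7%, 120 (14.3%) in 3, against 4.92%, and 72 (8.55%) in 4, against 1.41%. Coding and intron windows differed in this, as 21.4% of coding HOX windows stood in 1 list, and 63.9% of deep intron ones. No HOX window stood in more than 6 lists. The 4 windows in 6 lists were a 3′ UTR window of HOXC6 (chr12:54030058-54030153), the stop codon window of HOXA5 (chr7:27141835-27141934), and a coding and the start codon window of HOXA9 (chr7:27165260-27165357 and chr7:27165358-27165457). The HOXC6 window had 179 IP reads against 16 input reads for CPSF6, 65 against 13 for EIF4B and 52 against 10 for RBM22. At the HOXA9 start codon, EIF4B had 295 IP reads against 15 input reads, and CPSF6 211 against 15.

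**Figure D5:**
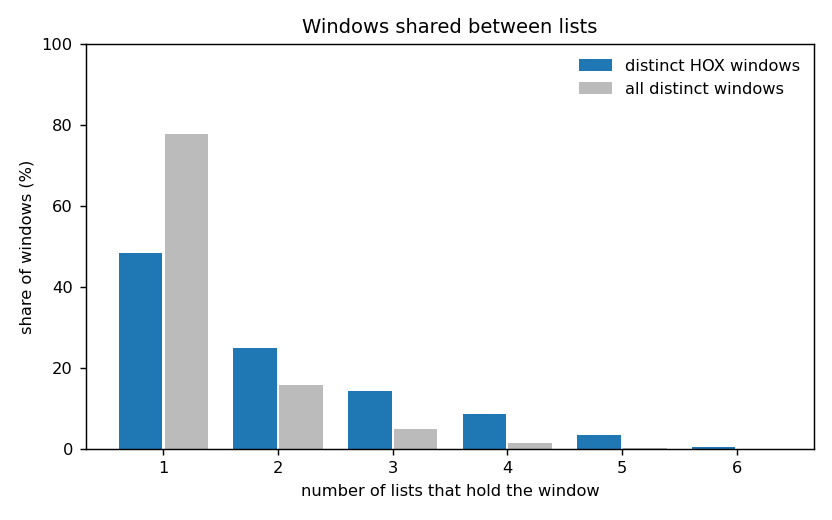
Share of distinct windows (%) by the number of lists that hold them, for HOX windows (blue, left) and all windows (grey, right). HOX windows stand in 1 list in 48.5% of cases, against 77.7% of all windows. The GRB2 list, the longest, makes up a larger part of all windows than of HOX windows.

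Proteins differed in how many HOX windows they had in common. Of the 182 RNPS1 HOX windows, 162 (89.0%) were also CPSF6 windows, against 57.3% of the whole RNPS1 list. From the CPSF6 side this was 37.9% of the HOX windows, against 56.3% of the list. The HOX share also in RNPS1 was likewise lower for EIF4B (23.1%, against 38.7%), RBM10 (19.8%, against 28.4%) and RBM22 (25%, against 49.7%). From the RNPS1 side these same overlaps lay above the list's. RBM22 shared 82 of its 100 HOX windows with CPSF6 (68.8% of its list). CPSF6 and EIF4B shared 207, or 48.5% of the CPSF6 and 50.9% of the EIF4B HOX windows, against 14.5% and 32.8% of the lists. CPSF5 and RBM10 shared 37, or 18.9% and 20.9% of their HOX windows, while 1.68% and 2.29% of the windows of the whole lists were shared. CPSF5 and CPSF6, partners in cleavage factor Im, shared 66, or 33.7% of the CPSF5 and 15.5% of the CPSF6 HOX windows, against 14.1% and 3.52% of the lists. GRB2 shared none of 65 with MBNL2 or RNPS1, and its whole list shared 0.335% and 0.320%. Of the GRB2 HOX windows 66.2% stood in no other list, against 98.1% of its whole list. That share was 48.5% for CPSF5, against 70.2%, 33.7% for EIF4B, against 39.5%, and 4% for RBM22, against 17.7%.

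Over all HOX windows of CPSF5, CPSF6, EIF4B, MBNL2, RBM10 and RBM22, deep intron windows made up a smaller share in homeobox genes outside the clusters than in HOX genes. For MBNL2 this did not hold inside RefSeq genes. Of 76 homeobox genes outside the clusters, 20 were listed, with 660 entries. CPSF5 had 84 of 196 HOX windows in deep introns and 0 of the 48 windows of these genes, which lay in the 3′ UTR or at the stop codon in 83.3% of cases. Of the 84 CPSF5 windows, 29 lay inside their RefSeq gene. EIF4B had 176 of 407 HOX windows in deep introns and 2 of 178 in these genes (1.12%). CPSF6 had 83 of 427 in HOX genes and 8 of 140 in the others, and MBNL2 2 of 86 and 0 of 109. RBM10 had 97 of 177 and 2 of 10, and RBM22 26 of 100 and 0 of 3, so both rest on few windows outside the clusters. Inside the RefSeq gene, MBNL2 had 0 of 82 HOX windows in deep introns. CPSF6 had 28 of 363 there (7.71%, against 5.71% outside the clusters), EIF4B 112 of 331, RBM10 49 of 122 and RBM22 10 of 81. GRB2 windows lay mostly in deep introns in both groups, 53 of 65 in HOX genes and 44 of 50 in the others. RNPS1 had 5 of 182 (2.75%) in HOX genes and 7 of 122 (5.74%) in the others. The difference was not tested, since windows of a gene are not independent.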

How the data were processed

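eCLIP windows were taken from 9 deposited tables, 1 for each protein, built on hg38 per the submitters' processing notes. For aligner, window caller and annotation, no name is given in the sources used here. Per the file headers, the authors deposited read counts of IP and input summed over replicates, log2 odds ratios of IP over input (lower and higher replicate), p-values and q-values, and the GC fraction of each window. Every listed window was called in 2 replicates, the largest q-value was 0.199923 and the longest window 100 nt. Library depth is unknown, since only reads in listed windows are held. Handling of reads that map to several paralogs is not given, so counts in the conserved homeobox are uncertain.

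Windows were tallied by gene, cluster, class and list with pandas 2.3.3 and numpy 2.4.6 under Python 3.11.15, and plotted with matplotlib 3.10.9. The merging of touching windows and the search for nearby windows were checked on simulated tables. No test was run. The deposited enrichment was used within a list only. Gene bounds and sequences came from RefSeq (GRCh38.p14). For 20 windows inside promoter entries the GC content of the sequence equalled the deposited value. Members and gene lists were chosen with earlier results of these data known. The genes named were the 10 with most distinct windows, for each protein the HOX gene with most windows and the HOX window with the highest lower enrichment, and the windows in most lists. Other members were named after their values were seen, and some genes of the lists are not reported here by name or in the plot of windows per gene.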

Additional observations from a re-analysis of the deposited data

How the results depend on the processing

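No paired analysis was possible because the deposited read counts were summed over replicates, and for the same reason no replicate could be left out in turn. With a largest q-value of 0.05, HOX windows numbered 116 for CPSF5, 267 for CPSF6, 222 for EIF4B, 19 for GRB2, 47 for MBNL2, 42 for RBM10, 33 for RBM22 and 108 for RNPS1, and HOX genes 3 for GRB2 and 9 for RBM22. CPSF5 windows were then 54.3% 3′ UTR and 34.5% deep intron, EIF4B 34.7% deep intron, CPSF6 32.2% coding and RBM22 12.1% deep intron, HOXA held 24.9% and HOXC 25.2%, and 58.0% stood in 1 list. With at least 20 IP reads, MBNL2 had 53 windows, 62.3% coding, and RNPS1 55.1% coding. Merging touching windows left 95 stretches for CPSF5, 170 for CPSF6, 210 for EIF4B, 30 for GRB2, 51 for MBNL2 and 85 for RNPS1. At least 3 windows were found in 4 HOX genes for GRB2, 11 for MBNL2 and 9 for RBM22. Weighting by IP reads gave 59.6% 3′ UTR and 29.6% deep intron for CPSF5, 24.8% deep intron for EIF4B, 38.5% coding for CPSF6, 63.1% for RNPS1 and 64.7% for MBNL2, with 17.8% in HOXC and 27.0% in HOXD. Counting windows within 100 nt as shared left 20.1% in 1 list. The higher replicate gave medians of 3.35 (CPSF5), 3.02 (CPSF6), 2.83 (EIF4B), 2.43 (GRB2), 3.38 (MBNL2), 2.90 (RBM10), 2.23 (RBM22) and 3.70 (RNPS1).

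The other alternatives were chosen after seeing the data. Keeping only windows inside the RefSeq gene gave 66.2% 3′ UTR and 21.8% deep intron for CPSF5, 33.8% deep intron for EIF4B, 40.2% for RBM10 and 12.3% for RBM22, and 32.0% coding for CPSF6. Adding windows of 2 genes raised HOXC to 33.4%. Several comparisons changed direction. The list's feature shares in them are those of all its windows, without the same limit or weighting, so the 2 sides are not alike. RBM22 deep intron windows passed below the list's 19.4%, and the MBNL2 median in the higher replicate passed above the list's 3.30. HOXC passed HOXB (28.3%) once windows of 2 genes were added. Weighted by IP reads, HOXC (17.8%) fell below HOXA (23.4%) and HOXD (27.0%). The MBNL2 coding share passed above the list's 50.1% with at least 20 IP reads (62.3%). It did so also when weighted by IP reads (64.7%) and inside the RefSeq gene (51.2%). The cause of these shifts was not tested beyond the smaller number of windows under stricter limits.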

Other observations

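Noncoding transcripts of the HOX clusters were bound as well. Of 19 looked for, 6 were listed, with 140 entries. HOTAIRM1, at the anterior end of HOXA, had 57 entries, of which CPSF6 took 17, RBM10 15 and RNPS1 11. HOTAIR, transcribed from HOXC, had 38, of which RBM10 took 14. Its strongest RBM10 window lay next to a 5′ splice site, with 101 IP reads against 0 input reads and log2 enrichments of 5.81 and 6.21. HOXA11-AS had 29 entries, HOXA10-AS 9, HOXB-AS3 4, all from EIF4B, and HOXA-AS2 3. None of the 5 cluster microRNA genes looked for was listed under its own name.

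Among the TALE homeodomain proteins, which bind DNA together with HOX proteins, 6 of 9 genes were listed. PBX3 had 242 entries, of which GRB2 took 185. PBX2 had none for GRB2 and 25 for RNPS1. The strongest GRB2 window of PBX3 had 153 IP reads against 0 input reads, with log2 enrichments of 6.94 and 7.06, above every GRB2 value of a HOX window. MEIS2 had 106 entries, 56 of them from CPSF6.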
